A study of Mus musculus with 2 samples.

Results

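The genes described here encode hnRNPs (heterogeneous nuclear ribonucleoproteins) and other RNA-binding proteins that regulate splicing. They were chosen by name, with no use of measured values: rows of the deposited gene table whose symbol is one of 37 listed hnRNP, PTBP, PCBP, FET, CELF, MBNL or related genes. All 37 were found among the 24034 genes of the table, and 20 of them carry an Hnrnp symbol. The data come from RAW264.7, an established mouse line labelled monocyte/macrophage and grown in DMEM with fetal bovine serum. Poly(A) RNA was sequenced in 2 libraries, 1 of cells treated with SFRS8 siRNA and 1 of cells labelled negative control, whose title reads WT. Both titles carry a 5 d mark whose starting point is not explained, and the sources used here name neither the siRNA sequence nor how it was delivered. Since each group is 1 library, differences between them lack any replicate and are given with no p-value.

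An hnRNP coats newly made RNA and, depending on where it binds, can hide or expose splice sites, often against the action of SR proteins. Many members also act outside the nucleus on mRNA decay and translation, and several of their genes limit their own output through exons or introns that send the transcript to nonsense-mediated decay. SFRS8 is an older name of Sfswap, itself a splicing regulator, so these genes are among the neighbours of the labelled target in the same process. Sfswap was not lower in the library labelled SFRS8 siRNA, with 3.38 FPKM against 2.92 FPKM (a level scaled for exon length and library size) in the library labelled negative control, a ratio of counts of 1.16 (1.0 to 1.34). Every direction below is therefore that of the library labelled SFRS8 siRNA against the library labelled negative control, and stands for the label alone.

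Library totals were 55411201 deposited counts (siRNA-labelled) and 54847367 (control). Members took 307530 counts (0.555%) and 243559 counts (0.444%) of these, a ratio of counts per total of 1.25 with an interval of 1.24 to 1.26. Intervals throughout are 95% exact limits for the ratio of counts and cover counting error only. All 10 macrophage markers listed (among them Csf1r, Adgre1 and Lyz2) were at 12.7 FPKM or more in both libraries. Transcripts of heart muscle differed between the libraries: 12 markers had 13302 counts against 419, each was higher in the siRNA-labelled library, and 5 (Actc1, Myl2, Myl3, Nppa and Pln) were at 0 in the control. In bulk RNA, fewer cells of a type and less RNA per cell cannot be told apart.

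The members spanned a wide range of levels in both libraries. Hnrnpa1, an RNA-binding protein that favours exon skipping, was the most abundant, at 213 FPKM in the siRNA-labelled library and 178 FPKM in the control. The poly(C)-binding proteins followed, with Pcbp1 at 121 against 112 FPKM. Pcbp2 stood at 105 against 108 FPKM, the only one of the 8 members with a mean above 50 FPKM that was lower in the siRNA-labelled library. These 3 genes made up 37.0% of the summed FPKM of the members in the siRNA-labelled library and 42.9% in the control. Behind them came Hnrnpab, Ptbp1, Raly, Hnrnpc and Hnrnpf, while 4 members had a mean under 1 FPKM: Ptbp2, Celf2, Mbnl2 and Hnrnpa3.

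**Figure D1:**
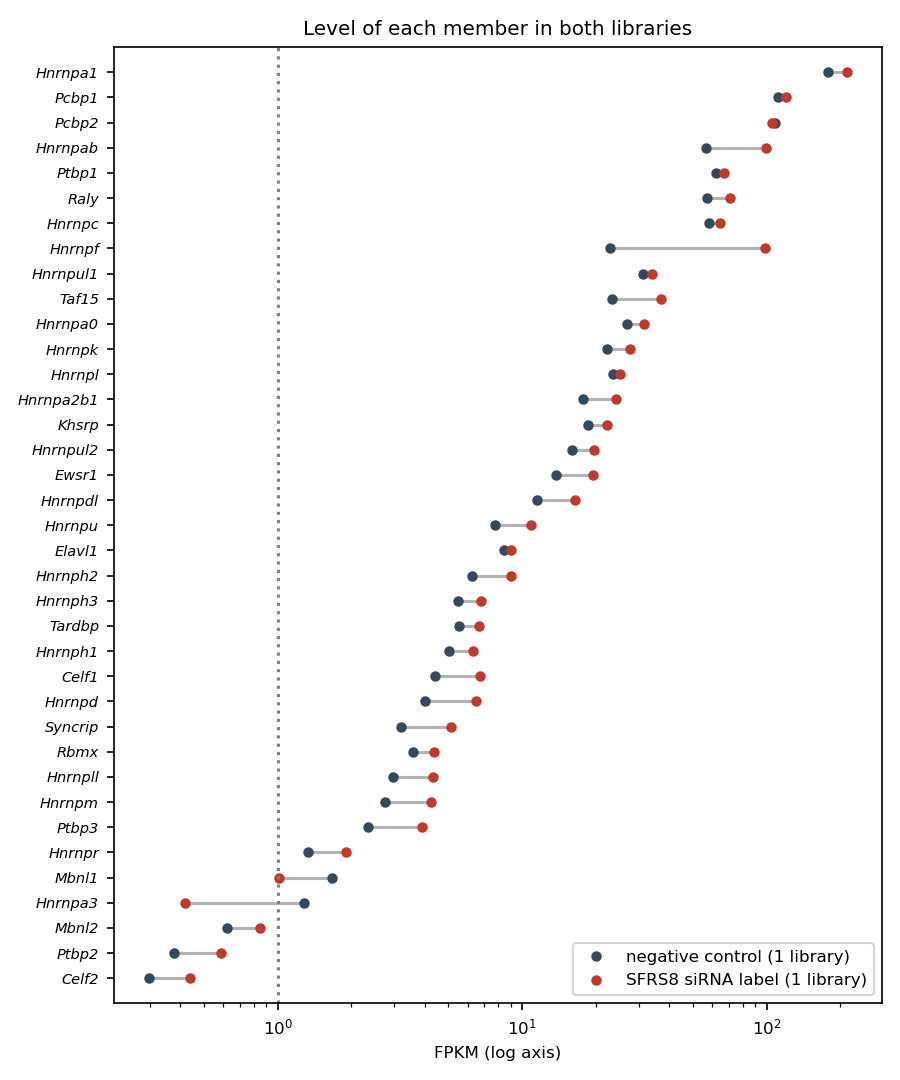
Level of each of the 37 members in FPKM on a log axis, in the negative control library (dark) and the library labelled SFRS8 siRNA (red); each point is 1 library, a line joins the points of a gene and the dotted line marks 1 FPKM. Hnrnpf is the gene with the longest line, from 22.8 FPKM in the control to 98.7 FPKM, and Hnrnpa1 is the highest in both libraries.

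An FPKM value here depends on the length of all annotated exons of a gene. Counts divided by FPKM and by the merged exon length gave nearly 1 constant per library, within 1% of its median for 99% and 98.3% of 9776 well-counted genes. A gene with a long annotated exon is thus listed low. Hnrnpr, for example, has 22.2 kb of merged exons and stood at 1.91 against 1.33 FPKM from 2598 against 1799 counts. The constant also means that a gene's FPKM does not resolve which of its transcripts were present. In the annotation, 17 of the 37 members (45.9%) list at least 1 transcript of the nonsense-mediated decay class, against 30.7% of the 8825 protein-coding genes averaging 1 FPKM or more. The members also list more transcripts of any class, a median of 10 against 5. Tardbp lists 10 transcripts of the decay class.

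Most members exceeded the typical gene in how far the siRNA-labelled library lay above the control. The difference was taken on the log2(FPKM + 1) scale, as the siRNA-labelled value minus the control value. Genes averaging 1 FPKM or more over both libraries entered, which were 33 of the 37 members and 10214 genes in all. The median difference was 0.31 over the 33 members (quartiles 0.22 and 0.48) and 0.11 over all genes (quartiles -0.05 and 0.29). Of the 33 members, 29 were above the median of all genes, where by construction 50% of all genes are, and 31 were above 0, against 66.9% of all genes. When counts were scaled with TMM factors or size factors, the median of all genes moved by -0.14 and -0.12. The number of members above 0 was then 25 and 26, while 26 were above the median of all genes under either scaling. The same excess of the members over that median was 0.20 in FPKM and 0.18 under both scalings.

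**Figure D2:**
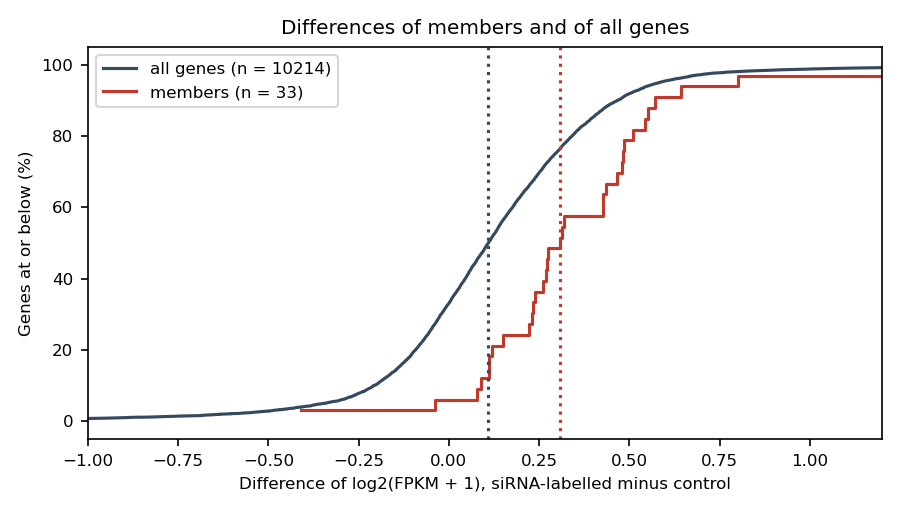
Cumulative share of genes (vertical axis, percent) at or below each log2(FPKM + 1) difference, siRNA label minus control (horizontal axis), for the 33 members (red) and all 10214 genes (dark) averaging 1 FPKM or more; dotted lines mark the medians of 0.31 and 0.11. The red curve lies to the right of the dark one over most of the range, and Hnrnpf, at 2.06, lies beyond the right edge.

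Few members passed a limit of size. At least 1.5-fold higher on the log2(FPKM + 1) scale were 3 of the 33 members (Hnrnpf, Hnrnpab and Taf15), against 4.91% of all genes, and none of the 33 was at least 1.5-fold lower, against 2.18%. At least 2-fold higher was Hnrnpf alone, against 1.18% of all genes, and no member was at least 2-fold lower, against 0.783%. The pseudocount of 1 FPKM understates the difference of low genes. In plain counts per total, 8 of the 33 members had a ratio of at least 1.5 (the 3 named and Ptbp3, Hnrnpd, Syncrip, Hnrnpm and Celf1), against 11.1% of all genes. Ptbp2, which is outside the 33, had a ratio of 1.55. On the lower side Mbnl1, with a ratio of 0.60 (0.52 to 0.70), was at least 1.5-fold lower in plain counts. The share of all genes past that lower limit in plain counts was not computed. For 30 of the 33 members the interval of the ratio began above 1, against 39.3% of all genes. These ratios are per library total, and in FPKM 66.9% of all genes had a difference above 0. With TMM factors 25 of the 33 members were above 0. The count of intervals also depends on depth, since a gene with more counts has a narrower interval. Hnrnpd, at a difference of 0.57, was the member just under the 1.5-fold limit, and Taf15, at 0.64, the one just past it.

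**Figure D3:**
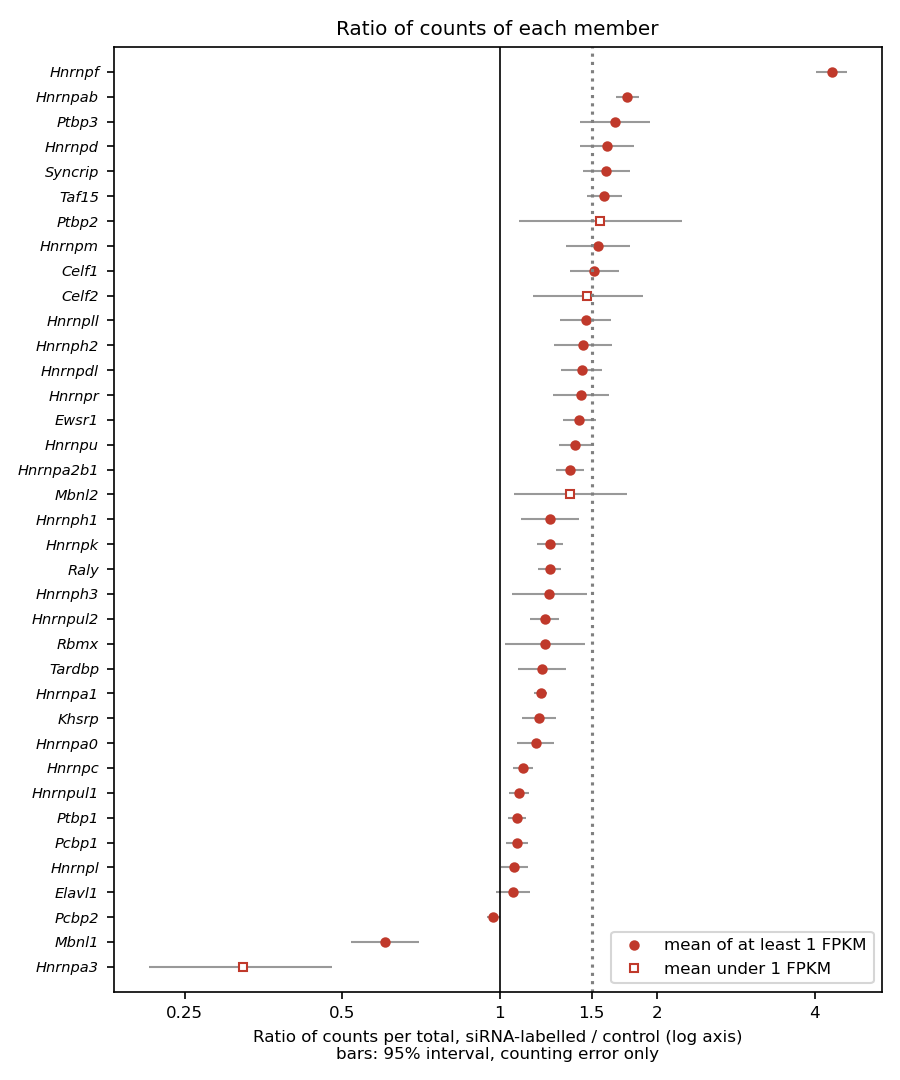
Ratio of counts per total, siRNA-labelled over control, for each of the 37 members on a log axis; bars are 95% intervals that cover counting error only, open squares are members with a mean under 1 FPKM, and lines mark ratios of 1 and 1.5. Hnrnpf stands at 4.31, most members lie between 1 and 1.75, and Pcbp2, Mbnl1 and Hnrnpa3 lie below 1.

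The AUF1 group, whose proteins bind AU-rich RNA and are known for setting the decay rate of cytokine and growth factor mRNAs, was higher in the siRNA-labelled library at all 3 genes. Hnrnpab (ENSMUSG00000020358, chromosome 11, 51600100 to 51606847, minus strand) stood at 99.5 FPKM in the siRNA-labelled library and 56.7 FPKM in the control, a ratio of counts of 1.75 (1.67 to 1.84). Hnrnpd, which encodes AUF1 itself, stood at 6.47 against 4.02 FPKM (1.61, 1.43 to 1.81). Hnrnpdl stood at 16.5 against 11.5 FPKM (1.43, 1.31 to 1.57). The 3 differences exceeded those of 98.1%, 94.7% and 91.1% of all genes, and each was above 0 under each scaling and after adjustment for GC content. Less than 25% of the longest transcript of each is shared with another gene. Summed over the 3 genes, 24773 counts stood against 14747, for a ratio of 1.66 (1.60 to 1.73).

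The promoters of these 3 genes are shown because all 3 genes were higher; each runs from 250 bases before the annotated start to 50 bases after it (RefSeq, GRCm38.p6), 5′ to 3′ along the gene. Capitals mark matches, on either strand, to the CCAAT box (CCAAT), the GC box (GGGCGG), the TATA box (TATAAA), the E-box (CACGTG), the ETS motif (CCGGAAG) or the NRF1 motif. The windows are chr11:51606832-51607131 for Hnrnpab, chr5:99978889-99979188 for Hnrnpd and chr5:100039173-100039472 for Hnrnpdl, all on the minus strand. The deposited coordinates of Hnrnpdl run from 100033577 to 100039664. By these its window lies wholly inside the gene, downstream of the start given there.
Hnrnpab: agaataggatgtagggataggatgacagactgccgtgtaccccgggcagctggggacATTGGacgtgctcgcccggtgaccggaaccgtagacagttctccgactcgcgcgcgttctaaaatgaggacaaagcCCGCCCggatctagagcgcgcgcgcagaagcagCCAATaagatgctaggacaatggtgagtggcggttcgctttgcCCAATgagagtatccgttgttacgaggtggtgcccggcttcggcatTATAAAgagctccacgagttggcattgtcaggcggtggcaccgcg
Hnrnpd: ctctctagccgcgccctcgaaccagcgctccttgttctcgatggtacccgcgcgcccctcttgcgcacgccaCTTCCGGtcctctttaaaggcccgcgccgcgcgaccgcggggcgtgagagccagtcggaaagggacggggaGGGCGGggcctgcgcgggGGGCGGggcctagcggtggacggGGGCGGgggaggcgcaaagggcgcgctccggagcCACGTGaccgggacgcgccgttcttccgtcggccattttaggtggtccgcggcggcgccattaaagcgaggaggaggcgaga
Hnrnpdl: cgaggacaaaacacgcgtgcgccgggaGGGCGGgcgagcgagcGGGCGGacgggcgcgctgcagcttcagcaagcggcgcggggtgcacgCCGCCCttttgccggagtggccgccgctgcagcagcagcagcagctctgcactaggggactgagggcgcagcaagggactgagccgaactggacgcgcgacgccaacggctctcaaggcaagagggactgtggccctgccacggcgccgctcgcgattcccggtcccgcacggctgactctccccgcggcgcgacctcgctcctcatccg
The 3 windows had few motifs in common. Each holds GGGCGG (1 match for Hnrnpab, 3 each for Hnrnpd and Hnrnpdl). Hnrnpab alone of the 3 holds TATAAA (1 match) and CCAAT (3 matches), and it has a GC content of 58.3%, against 72.3% and 72.7%. The 34 members with an entry have 49 windows, spread unevenly, with 5 each for Celf2 and Hnrnph1 and 4 for Hnrnpf. Members with a mean under 1 FPKM are included. Over these 49 windows, 49.0% hold CCAAT and 73.5% GGGCGG. Among 9131 windows of genes averaging 1 FPKM or more these shares were 38.2% and 65.2%, and among all 32851 windows 37.4% and 35.7%. CACGTG was in 16.3% of the member windows, against 10.7% and 7.15%. TATAAA was in 10.2% of the member windows (6.55% and 13.6%), CCGGAAG in 14.3% (20.1% and 8.86%) and the NRF1 motif in 10.2% (11.3% and 4.60%). A match describes letters in these windows and shows no bound factor.

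In the A/B family, whose proteins coat exons and favour skipping, 3 of the 4 genes were higher in the siRNA-labelled library. Hnrnpa2b1, which also sorts RNAs for transport, stood at 24.2 against 17.7 FPKM (count ratio 1.36, 1.28 to 1.45). Hnrnpa0, an intronless relative that binds AU-rich mRNAs in macrophages, stood at 31.6 against 26.9 FPKM (1.17, 1.08 to 1.27). Hnrnpa1 (213 against 178 FPKM) had a ratio of 1.2 (1.16 to 1.23), and other genes repeat 30.9% of its longest transcript. Summing it with its 6 copies elsewhere in the genome, which held 3713 against 3236 counts, left the ratio at 1.19 (1.16 to 1.23). These 3 genes were above the median of all genes in FPKM and under each count scaling, but Hnrnpa1 was below it after adjustment for GC content, at 0.09.

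Hnrnpa3, the fourth A/B gene, had far fewer counts at its own locus than its copies held together. Whether counts at a copy come from the copy or from Hnrnpa3 was not tested. At its own locus (ENSMUSG00000059005, chromosome 2, 75659261 to 75669407, plus strand) it had only 138 counts in the siRNA-labelled library and 423 in the control, or 0.42 against 1.29 FPKM, a ratio of 0.32 (0.21 to 0.48). The table also lists 18 genes at other places, each with at least 50% of its own transcript aligned to Hnrnpa3 at 98% identity or more, all but Gm6793 annotated as processed pseudogenes. Together they held 18916 against 13254 counts, so that the Hnrnpa3 locus had 0.724% and 3.09% of the summed counts. Gm6793, a copy annotated as protein-coding on chromosome 8, had 6833 against 5064 counts (1.34, 1.24 to 1.44), and Gm5641 on chromosome 3 had 3191 against 1726 (1.83, 1.63 to 2.06). Over the locus and its copies the ratio was 1.38 (1.32 to 1.44), on the other side of 1 from the value of the locus alone. The sum was chosen after the values had been seen.

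A stretch of 100 bases from the middle of the Hnrnpa3 coding sequence (coding bases 486 to 585) is printed beside its counterpart in Gm6793, the copy with the most counts, to show how alike they are. Capitals mark bases that differ from Hnrnpa3.
Hnrnpa3: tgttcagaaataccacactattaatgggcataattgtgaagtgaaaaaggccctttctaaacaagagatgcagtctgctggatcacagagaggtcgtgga
Gm6793: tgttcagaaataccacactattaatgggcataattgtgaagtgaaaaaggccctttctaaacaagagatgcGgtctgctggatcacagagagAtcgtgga
Gm6793 differed at 2 of the 100 bases. In Gm12960 (3083 against 2356 counts) and Gm11847 (3126 against 2082 counts), both on chromosome 4, the stretch was the same at every base, so a read within it cannot be placed at 1 of these genes by its sequence.

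The F/H family, whose proteins bind runs of G and act as enhancers or silencers of nearby exons, holds the member with the largest difference. Hnrnpf (ENSMUSG00000042079, chromosome 6, 117900324 to 117925622, plus strand) had 18444 counts in the siRNA-labelled library and 4235 in the control, or 98.7 against 22.8 FPKM, a ratio of 4.31 (4.03 to 4.61). Its difference of 2.06 exceeded that of 99.8% of all genes, but other genes repeat 74.4% of its longest transcript. The table lists 6 copies at other places, with 3631 against 3876 counts in all (0.93, 0.85 to 1.02). Among them Gm12435, a processed pseudogene on chromosome 4, had 69 counts in the siRNA-labelled library against 1927 in the control (0.035, 0.021 to 0.057). Gm6430 on chromosome 1 had 2688 against 1654 (1.61, 1.42 to 1.82) and Gm7446 on chromosome 13 had 794 against 184 (4.27, 3.09 to 6.02). The copies did not follow the parent gene evenly, and the Hnrnpf locus held 83.6% of the summed counts in the siRNA-labelled library and 52.2% in the control. Over the locus and its copies the counts were 22075 against 8111, a ratio of 2.69 (2.56 to 2.84), lower than that of the locus alone but still above those of the other members.

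The coding stretch below (coding bases 1113 to 1212 of Hnrnpf) is where the 3 most abundant copies differ most from the parent gene, with capitals at the bases that differ from Hnrnpf. It was picked from windows of 100 bases in which no copy had more than 5 differing bases when aligned without a gap.
Hnrnpf: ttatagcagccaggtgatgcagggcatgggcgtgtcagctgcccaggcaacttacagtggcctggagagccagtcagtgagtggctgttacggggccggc
Gm6430: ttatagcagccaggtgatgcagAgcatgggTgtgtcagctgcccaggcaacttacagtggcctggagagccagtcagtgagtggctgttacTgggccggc
Gm12435: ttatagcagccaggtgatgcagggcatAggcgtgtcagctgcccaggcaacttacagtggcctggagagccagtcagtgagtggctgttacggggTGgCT
Gm7446: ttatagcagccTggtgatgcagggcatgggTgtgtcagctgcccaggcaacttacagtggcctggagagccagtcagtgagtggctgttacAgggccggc
Even there Gm6430 and Gm7446 differed at 3 bases and Gm12435 at 5. In the middle of the coding sequence (coding bases 573 to 672) none of the 3 copies differed from Hnrnpf at any of 100 bases.

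**Figure D4:**
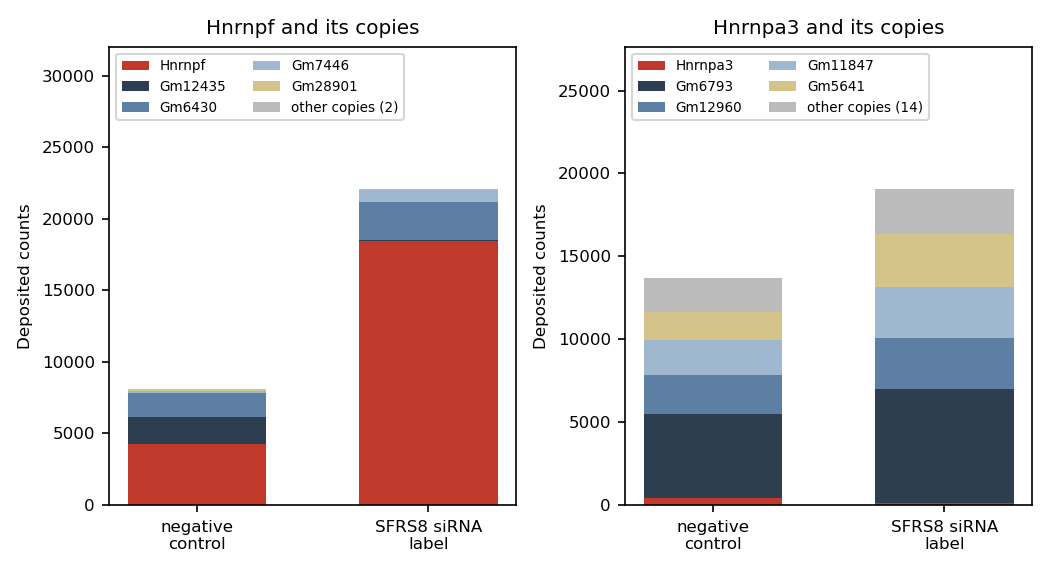
Deposited counts of Hnrnpf (left) and Hnrnpa3 (right) and of their copies elsewhere in the genome, stacked, in the 2 libraries; the red block is the gene's own locus and the other blocks are the 4 copies with most control counts and the rest summed. The Hnrnpf block is 4235 counts in the control and 18444 in the siRNA-labelled library, while Hnrnpa3 has 423 and 138 counts beneath copies that hold 13254 and 18916.

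The other F/H genes share little sequence with other genes and were higher by far less. Hnrnph2, on the X chromosome, stood at 9.03 against 6.26 FPKM (count ratio 1.44, 1.27 to 1.64). Hnrnph1 stood at 6.28 against 5.01 FPKM (1.25, 1.10 to 1.42). Hnrnph3 stood at 6.82 against 5.48 FPKM (1.24, 1.05 to 1.47). After adjustment for GC content Hnrnph1 and Hnrnph3 were below the median of all genes. The intervals of these 3 genes overlap one another, and none reaches the interval of Hnrnpf alone or with its copies.

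The poly(C)-binding KH proteins, which bind C-rich RNA and act on splicing, translation and mRNA stability, had the ratio of summed counts nearest to 1 among the families of more than 1 gene. Hnrnpk stood at 27.7 against 22.2 FPKM (count ratio 1.25, 1.18 to 1.32), and at 1.24 with its processed copy Gm7964, which had 2226 against 1830 counts. Pcbp1, an intronless gene, had a ratio of 1.08 (1.03 to 1.13), next to the median of all genes. Pcbp2 had a ratio of 0.97 (0.94 to 1.0) and a difference of -0.04, above that of only 27.3% of all genes; 53.0% of its longest transcript is shared, mostly with its neighbour Map3k12, which had 528 against 619 counts. Pcbp1 was below 0 with TMM factors and size factors, as Pcbp2 was under every scaling, and the summed counts of the family gave a ratio of 1.04 (1.02 to 1.06).

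Hnrnpl and the polypyrimidine tract binding proteins, repressors that bind CA repeats and pyrimidine-rich tracts, had lower ratios at the abundant paralogue of each set. Ptbp1, the form of most non-neuronal cells, stood at 67.0 against 62.0 FPKM (count ratio 1.08, 1.04 to 1.12). Ptbp3, a paralogue found chiefly in blood-forming cells, stood at 3.90 against 2.34 FPKM (1.66, 1.42 to 1.94). Ptbp2, the neuronal form, was low in both libraries, at 0.59 against 0.38 FPKM from 336 against 214 counts (1.55, 1.09 to 2.23). Likewise Hnrnpl stood at 25.2 against 23.6 FPKM (1.07, 1.0 to 1.13), while Hnrnpll, known for the change of Cd45 exons in activated lymphocytes, stood at 4.32 against 2.95 FPKM (1.46, 1.3 to 1.63). The abundant paralogue of each set was close to the median of all genes, with Ptbp1 and Hnrnpl below 0 under TMM and size factors. The less abundant paralogues were above it. After adjustment for GC content Hnrnpl (0.19) and Hnrnpll (0.21) lay closer, as did Ptbp1 (0.20) and Ptbp3 (0.31). Ptbp2, with a difference of 0.21 before the adjustment, was then at -0.06, below Ptbp1 and below the median of all genes.

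Hnrnpc, which binds U tracts as a tetramer and guards against the inclusion of cryptic exons, stood at 64.4 against 58.0 FPKM (1.11, 1.06 to 1.16), and it was below 0 with TMM factors and after adjustment for GC content. Raly, its close relative, stood at 71.1 against 57.0 FPKM (1.25, 1.19 to 1.31). Hnrnpm, linked in mouse macrophages to the processing of cytokine transcripts, stood at 4.25 against 2.76 FPKM (1.54, 1.34 to 1.77). It overlaps March2 on the same strand, and the summed counts of both genes had a ratio of 1.42 (1.28 to 1.57). Every other gene that overlaps a member on the same strand had at most 16 counts in a library. Syncrip (hnRNP Q), which acts in mRNA transport and translation, stood at 5.14 against 3.21 FPKM (1.60, 1.44 to 1.77). Its paralogue Hnrnpr had a ratio of 1.43 (1.27 to 1.62).

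The U family, whose founding member Hnrnpu attaches chromatin to the nuclear scaffold and regulates splicing, was higher at all 3 genes in FPKM. Hnrnpu stood at 10.8 against 7.76 FPKM (1.4, 1.3 to 1.5). Hnrnpul2 stood at 19.6 against 16.1 FPKM (1.22, 1.14 to 1.3). Hnrnpul1 stood at 34 against 31.2 FPKM (1.09, 1.04 to 1.14). The least abundant gene had the highest ratio, and Hnrnpul1, the most abundant, was below 0 with TMM and size factors. After adjustment for GC content this order was gone, with differences of 0.21 for Hnrnpu, 0.27 for Hnrnpul2 and 0.21 for Hnrnpul1. Rbmx (hnRNP G), an X-linked gene placed in a separate family, stood at 4.39 against 3.59 FPKM (1.22, 1.02 to 1.45).

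Both members of the FET family, whose proteins link transcription by RNA polymerase II with splicing, were higher in the siRNA-labelled library. Taf15 (ENSMUSG00000020680, chromosome 11, 83473086 to 83506743, plus strand) stood at 37.0 against 23.3 FPKM (1.58, 1.47 to 1.71). Ewsr1 stood at 19.5 against 13.7 FPKM (1.42, 1.32 to 1.53). Taf15 was under 1.5-fold with TMM factors (0.50), with size factors (0.51) and with a pseudocount of 5 FPKM (0.57). Taf15 and Ewsr1 were above 0 under each scaling, and after adjustment for GC content their differences were 0.64 and 0.56.

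Among the regulators of mRNA decay and of muscle and neuronal splicing, Elavl1 and Khsrp act in opposite directions on AU-rich mRNAs. Before adjustment for GC content both were nearer the middle of all genes, above 45.5% and 68.4% of them. Elavl1 (HuR, a stabiliser) stood at 9.0 against 8.46 FPKM (1.06, 0.98 to 1.15), and its difference was below 0 with TMM factors, with size factors and after adjustment for GC content. Khsrp (a decay factor) stood at 22.2 against 18.6 FPKM (1.19, 1.10 to 1.28). Its difference was 0.24 before adjustment for GC content and 0.38 after it, above the median of all genes. Tardbp (TDP-43), which represses cryptic exons and controls its own mRNA, stood at 6.67 against 5.53 FPKM (1.2, 1.08 to 1.34).

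Celf1 and Mbnl1, whose proteins oppose each other on many muscle exons, went in opposite directions. Celf1 stood at 6.70 against 4.41 FPKM (1.52, 1.36 to 1.69), above 92.3% of all genes. Mbnl1 (ENSMUSG00000027763, chromosome 3, 60472830 to 60629750, plus strand) stood at 1.01 against 1.67 FPKM from 1169 against 1915 counts (0.60, 0.52 to 0.70). Its difference of -0.41 was the lowest of the 33 members and lay among the lowest 4.0% of all genes. It was also below 0 under each scaling and after adjustment for GC content (-0.64), and it shares no sequence with another gene at the limits used here. It overlaps Gm37589 and Gm37488 on the same strand, which had 0 counts each in the siRNA-labelled library and 4 and 8 in the control. The paralogues Mbnl2 (0.85 against 0.62 FPKM, 1.36, 1.06 to 1.75) and Celf2 (0.44 against 0.30 FPKM, 1.47, 1.16 to 1.88) were low in both libraries, and the difference of Celf2 was -0.06 after adjustment for GC content. Markers of heart muscle, given above, were higher in the same library as Celf1, and their part in the result was not tested.

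Beyond the members, other RNA-binding proteins of splicing gave much the same picture. Of 52 listed genes, 36 averaged 1 FPKM or more, with a median difference of 0.30 against 0.11 over all genes; 29 of the 36 were above the median of all genes and 34 above 0. Past 1.5-fold were 2 of the 36, both higher, against 4.91% of all genes higher and 2.18% lower. Ddx5, an RNA helicase of splicing and transcription, stood at 29.9 against 18.0 FPKM (1.66, 1.56 to 1.77), though other genes repeat 54.3% of its longest transcript. Rbm17, a splicing factor also called SPF45, stood at 21.5 against 13.6 FPKM (1.59, 1.42 to 1.78). Rbm45 stood at 3.88 against 2.26 FPKM (1.72, 1.26 to 2.37) and Qk, a regulator of splicing during monocyte to macrophage differentiation, at 2.21 against 1.19 FPKM (1.86, 1.60 to 2.18). The most abundant genes of the list were Ybx1, at 444 against 349 FPKM (1.27, 1.24 to 1.3), and Ybx3, at 110 against 91.7 FPKM (1.2, 1.15 to 1.25). With no minimum on FPKM, where 51 listed genes entered, the median of the list was 0.19 and that of all genes 0.04.

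Close paralogues outside the list were mostly low in both libraries. Of 14 such genes 12 are in the table, and 9 of these had a mean under 1 FPKM, namely the neuronal Elavl2, Elavl3 and Elavl4, Celf3, Celf4, Celf5 and Celf6, Pcbp3 and Ralyl. Among those above that level were Pcbp4, at 1.57 against 2.13 FPKM (0.74, 0.57 to 0.96), and Rbmxl1, a retrogene of Rbmx, at 28.9 against 20.8 FPKM (1.39, 1.24 to 1.55), of which 91.4% is shared with other genes.

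The members' transcripts are poorer in GC than the typical gene, and differences in these libraries followed GC content. The median GC content of the longest transcript was 44.7% over the 33 members and 50.3% over all genes averaging 1 FPKM or more. Across those 10214 genes the difference had a Spearman rho of -0.46 with GC content, and across the 33 members of -0.18; genes of 1 pair of libraries are not independent replicates. Among genes of at most 42% GC the median difference was 0.43 over 10 members and 0.35 over all 971 genes. Between 42% and 50% GC it was 0.31 over 15 members and 0.21 over all 3981 genes. Above 50% GC it was 0.17 over 8 members and 0.01 over all 5262 genes. After adjustment for the GC trend the median was 0.25 over the members and 0.11 over all genes, and 23 of the 33 members were above the median of all genes. Those above it before and below it afterwards were Hnrnpr (0.10), Hnrnph1 (0.02), Hnrnph3 (0.10), Hnrnpa1 (0.09), Tardbp (0.02), Rbmx (0.08) and Hnrnpc (-0.04). The distance between the medians of the members and of all genes was thus 0.14 with the adjustment and 0.20 without it.

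**Figure D5:**
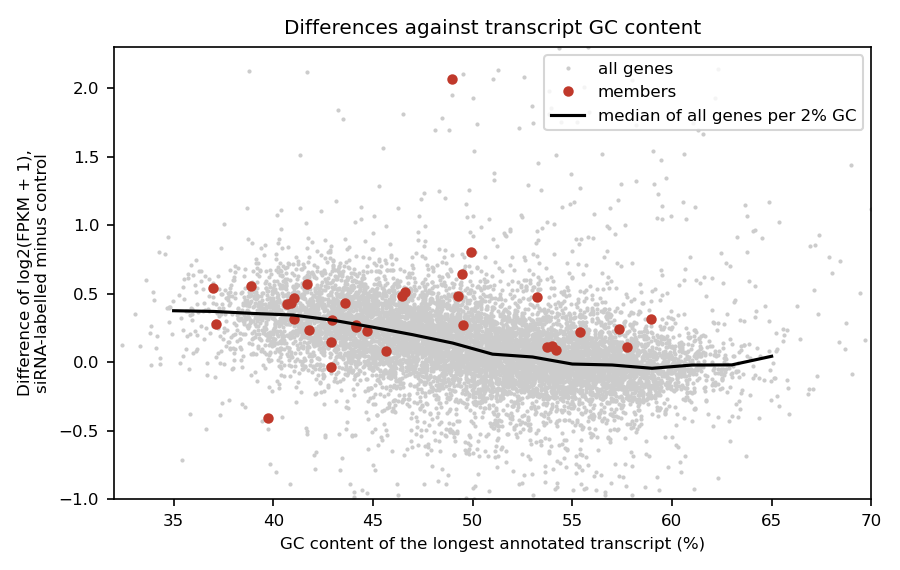
The log2(FPKM + 1) difference, siRNA label minus control (vertical axis), against the GC content of the longest annotated transcript in percent (horizontal axis), for all genes averaging 1 FPKM or more (grey) and the 33 members (red); the black line joins medians of all genes per 2% of GC content. The line falls from left to right. After adjustment for this trend 23 of the 33 members were above the median of all genes. Among those below were Mbnl1 (-0.64 adjusted, -0.41 as plotted) and Pcbp2 (-0.23 adjusted, -0.04 as plotted).

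Higher in the siRNA-labelled library were heart muscle (12 markers, 13302 against 419 counts) and red blood cell transcripts (5 markers, 423 against 6 counts). Each of these markers was higher there. The 7 fibroblast markers summed to 350 against 16 counts, but only 5 of them were higher, and the highest stood at 0.25 FPKM. The 10 macrophage markers had 1327871 against 1464907 counts (0.90, 0.89 to 0.90). Lyz2 alone gave 1129859 against 1251570 of these, and 5 of the 10 macrophage markers were higher in the siRNA-labelled library, with a median difference of -0.03. The part of other cells' RNA in the members' differences was not tested.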

How the data were processed

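Per the labels' protocols, poly(A) RNA from RAW264.7 was read on a NovaSeq with paired ends, in 2 libraries grouped by treatment label; the same protocol text also speaks of an adipose type. StringTie 1.3.0 and HISAT2 2.0 are listed among tools in the submitters' processing notes; for genome build, annotation and strandedness, "not given in the sources used here" holds. All 24034 identifiers were found in GENCODE release M21 (GRCm38), 21651 of them (90.1%) with identical coordinates, including 32 of the 37 members, so that annotation gave transcripts, exon lengths and GC content.

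The deposited level columns are FPKM per the file headers, and their ratio to the counts follows exon length and 1 constant per library. The deposited estimated counts are whole numbers, but 45.1% and 42.7% of counts from 1 to 20 were multiples of 4, so 4 counts were taken as 1 read pair in the intervals (conditional binomial, exact Clopper-Pearson, 95%). They leave out all but counting error, and without molecular identifiers read pairs are not separate molecules. Each column was matched by name and 0 were left unmatched.

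The measure was log2(FPKM + 1) under the siRNA label minus that of the control, for genes averaging 1 FPKM or more; a pseudocount of 1 understates differences of low genes. Members, lists, the rule for naming genes (every member by level or difference, with full values for the 3 most abundant, those past 1.5-fold, the 5 lowest, those sharing sequence and paralogue pairs; from other lists the 4 largest differences and the 2 most abundant) and the fold limits were chosen with earlier results of these data known. Sharing was searched with blastn 2.17.0 (at least 98% identity over 100 bases); a gene counted as sharing when this covered 25% of its longest transcript or when it overlapped a gene on the same strand. A copy is a gene with at least 50% of its longest transcript aligned to a member and at least 100 kb away or on another chromosome. Alternatives were other pseudocounts, filters and scalings (edgeR 4.0.16 TMM, DESeq2 1.42.0 size factors), a lowess adjustment for GC (span 0.3), removal of sharing genes and, chosen after seeing the data, sums with copies. No count test was run. The values of 1 listed gene outside the members are not reported here. The procedure was tested on simulated data. Software was R 4.3.3 and Python 3.11.15 with scipy 1.17.1, statsmodels 0.14.6, pandas 2.3.3, matplotlib 3.10.9 and numpy 2.4.6.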

Additional observations from a re-analysis of the deposited data

How the results depend on the processing

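No paired analysis was possible because each group has 1 library and the result comes from no test; for the same reason no library could be left out. The median difference of the 33 members (0.31) was above that of all genes under every alternative run, by 0.14 to 0.23. It became 0.16 with TMM factors and 0.17 with size factors. Members at least 1.5-fold higher numbered 8 rather than 3 with a pseudocount of 0.1 FPKM, with counts scaled to the library total and with copies summed, while the share of all genes past that limit was 10.3%, 8.51% and 8.51% rather than 4.91%. They numbered 2 with a pseudocount of 5 FPKM, TMM factors or size factors, where Taf15 was under the limit, and 2 of 23 without sharing genes. The shares of all genes past that limit were then 1.28%, 4.01%, 4.20% and 3.93%. Members at least 1.5-fold lower numbered 1 rather than 0 with a pseudocount of 0.1 FPKM, with counts scaled to the library total and with copies summed. The same held with TMM factors, with size factors and after GC adjustment, and the member was Mbnl1 each time among the 33. With no minimum on FPKM the number was also 1, since Hnrnpa3 then enters. The share of all genes at least 1.5-fold lower was computed only for the main setting, at 2.18%. Without sharing or overlapping genes 0 members were past 2-fold, since Hnrnpf leaves the list. The median of the other splicing RNA-binding proteins (0.30) became 0.17 with a pseudocount of 5 FPKM, 0.19 with no minimum and for genes averaging 5 FPKM or more, and 0.19 with TMM factors. The median of all genes (0.11) moved as well. It became 0.06 with a pseudocount of 5 FPKM, 0.04 with no minimum, 0.06 for genes averaging 5 FPKM or more and -0.03 with TMM factors. Hnrnpa3 stood at -0.69 in FPKM, at -1.32 in counts scaled to the library total and, on that count scale, at 0.46 with its copies summed. Single members' differences moved by more than their counting error in 22 of 37 cases with TMM factors, 21 with size factors, 22 after GC adjustment, 10 with a pseudocount of 5 FPKM, 4 in counts per total and 2 with a pseudocount of 0.1 FPKM. TMM and size factors also moved the median of all genes, by -0.14 and -0.12. Under these scalings the number of moved members thus depends largely on how narrow each member's interval is. Depth limits Hnrnpa3, Ptbp2, Mbnl2 and Celf2, at 138 to 697 counts per library.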
